A study of Mus musculus with 3 samples.

Results

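Bone morphogenetic protein (BMP) signalling was examined through 10 genes, the 7 ligand genes Bmp2, Bmp4, Bmp5, Bmp6, Bmp7, Bmp8a and Bmp8b and the 3 receptor genes Bmpr1a, Bmpr1b and Bmpr2. They were chosen by symbol for their known place in epididymal maintenance, and all 10 were found among the 24346 genes of the table. The tissue was the initial segment and caput, the most proximal part of the epididymal duct, taken at 14 weeks of age from untreated mice of genotype Ovch2-/-. Ovch2 encodes a secreted serine protease of the proximal duct that acts in sperm maturation. The labels give 1 group of 3 libraries, called replicates 1, 2 and 3, with no control tissue among them, so no value below is an effect of the knockout and no test between genotypes was made. The labels name neither the strain nor the deleted exons, and do not say if each library is 1 animal or a pool, so the spread between libraries may be technical.

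BMPs are secreted as precursors that proprotein convertases cleave, and the mature dimers bind a complex of type I and type II serine/threonine kinase receptors. The type I receptor then phosphorylates SMAD1, SMAD5 and SMAD9, which enter the nucleus with SMAD4 and switch on genes such as the Id family. Secreted antagonists such as noggin, chordin and the gremlins hold the ligands off their receptors. In mice, Bmp4, Bmp7 and Bmp8a are known from mutants in which the epididymal epithelium degenerates.

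The libraries were not alike, which bears on every value that follows. Replicates 2 and 3 had a Pearson's r of 0.989 across genes on the log2(FPKM + 1) scale, and replicate 1 reached 0.965 and 0.969 with them. FPKM scales fragments by transcript length and library size, so levels of different genes can be set side by side. Ovch2 RNA, from the targeted gene, was read at 4.50, 80.2 and 77.2 FPKM (replicates 1, 2 and 3, the order used throughout). A gene-level value does not show whether the deleted part was read, so it checks no label. Summed over 15 initial segment genes the level was 480, 39181 and 41406 FPKM, and 14 of the 15 were lowest in replicate 1, whereas 12 caput genes summed to 77771, 74178 and 80758 FPKM. That even sum covers opposite differences, since 6 of the 12 were lowest and 4 highest in replicate 1 and 6 varied at least 2-fold on the FPKM + 1 scale, among them Cst12 (0.576, 5676 and 5135 FPKM) and Lcn5 (21673, 4290 and 13581 FPKM). The 7 spermatid genes of a germ cell list, all lowest in replicate 1, summed to 2.52, 164 and 223 FPKM. Adam28 (0.190 FPKM) and Cst8 (0.781 FPKM), defining markers of the initial segment, were near 0 in replicate 1, against its label. Other genes of the list were still read there. Cst11 was read but far lower in replicate 1, at 150, 7263 and 7124 FPKM. Ros1 stood at 21.1, 36.6 and 34.8 FPKM, and Ggt1 was highest in replicate 1 at 252, 72.6 and 112 FPKM. Member values are given with and without replicate 1. In bulk tissue, fewer cells of a type and less RNA per cell cannot be told apart.

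Among the ligands, Bmp8a varied most and its neighbour Bmp8b was almost unread, so the promoters of this pair are shown. That of Bmp4, the most abundant of the member ligands, is given for comparison. Bmp8a (chromosome 4, 123312645 to 123343252, minus strand) and Bmp8b (chromosome 4, 123104308 to 123126094, plus strand) are related genes on the same chromosome. The sequences are from RefSeq on GRCm38.p6, the assembly behind mm10. They run 5′ to 3′ on the gene's strand from 250 bases before the start to 50 bases after it. Capitals mark CCGGAA or its reverse complement TTCCGG, a core bound by ETS factors such as ETV4 and ETV5. The windows are chr4:123343203-123343502 (minus strand) for Bmp8a, chr4:123104911-123105210 (plus strand) for Bmp8b and chr14:46390620-46390919 (minus strand) for Bmp4. The Bmp8b window lies around a RefSeq start inside the gene, downstream of the gene's first annotated base.
Bmp8a: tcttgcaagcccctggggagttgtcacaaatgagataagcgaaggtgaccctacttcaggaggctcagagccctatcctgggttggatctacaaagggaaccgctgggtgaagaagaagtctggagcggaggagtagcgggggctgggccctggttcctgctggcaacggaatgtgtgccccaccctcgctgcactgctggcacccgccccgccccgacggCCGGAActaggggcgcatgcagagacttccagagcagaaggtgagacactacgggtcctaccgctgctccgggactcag
Bmp8b: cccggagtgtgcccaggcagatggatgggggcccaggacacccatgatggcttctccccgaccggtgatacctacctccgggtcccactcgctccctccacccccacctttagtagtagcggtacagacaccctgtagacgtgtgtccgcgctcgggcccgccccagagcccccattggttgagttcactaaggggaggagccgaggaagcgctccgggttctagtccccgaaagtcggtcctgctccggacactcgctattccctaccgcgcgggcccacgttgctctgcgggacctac
Bmp4: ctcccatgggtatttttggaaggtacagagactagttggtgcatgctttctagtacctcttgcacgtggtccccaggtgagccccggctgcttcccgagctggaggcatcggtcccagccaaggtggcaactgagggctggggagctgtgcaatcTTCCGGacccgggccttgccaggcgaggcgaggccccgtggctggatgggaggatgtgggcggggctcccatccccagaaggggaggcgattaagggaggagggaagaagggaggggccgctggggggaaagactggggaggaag

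The ETS core stood once in the Bmp8a window, beginning at base -29, and once in the Bmp4 window, beginning at base -95, and was not among the letters of the Bmp8b window. It also stood in 1 of the 3 Bmpr1b windows, beginning at base -38, and in no window of Bmp5, Bmp6, Bmpr1a or Bmpr2. Of 32851 promoters of the same length, 14.9% held it on either strand. The letters GGCGCC, part of a known BMP-responsive element bound by SMAD1 and SMAD5 and the same on both strands, were in none of the 3 windows. They occurred in the windows of Bmpr1a and Bmpr2 and in 11.9% of all 32851. GC content was 62.0% for Bmp8a, 65.3% for Bmp8b and 64.0% for Bmp4, above the median promoter's 52.7%. A match of letters shows no binding. Promoters were matched for 8 of the 10 members, not for Bmp2 and Bmp7.

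The most abundant members were Bmp4 and Bmp7 among the ligands and Bmpr1a among the receptors, in every library. Of the 10 members, 7 reached a mean of 1 FPKM, a common level for calling a gene read, against 53.7% of all genes. These were Bmp4, Bmp6, Bmp7, Bmp8a, Bmpr1a, Bmpr1b and Bmpr2, and no member was listed at 0 in any library. The median of the 10 members on the log2(FPKM + 1) scale was 1.99, 1.86 and 1.57 in replicates 1, 2 and 3, beside 1.26, 1.33 and 1.32 over all genes. The 7 members past 1 FPKM had medians of 2.59, 2.04 and 2.08, beside 3.49, 3.55 and 3.53 over the 13073 genes past the same filter. The members' median was thus the lower one in each library, although Bmpr1a, at a mean of 3.93 on this scale, lay above that of the filtered genes.

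**Figure D1:**
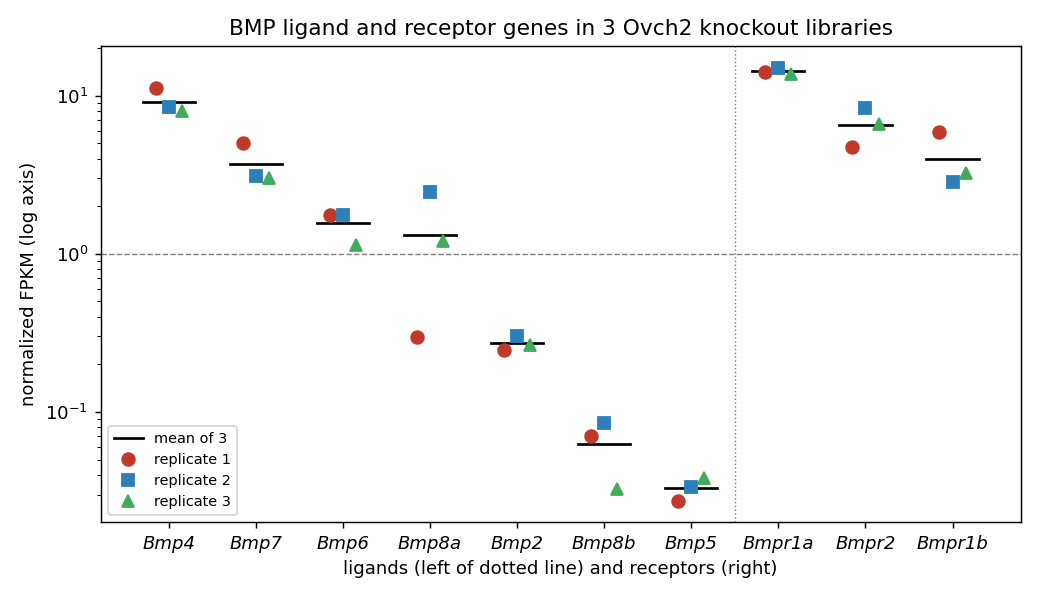
Level of the 10 BMP members in normalized FPKM (log axis), with 1 point per library and a bar at the mean of 3; the dashed line is 1 FPKM. Bmp4 leads the ligands and Bmpr1a the receptors in every library, and Bmp8a has the widest spread, from 0.296 FPKM in replicate 1 to 2.46 FPKM in replicate 2.

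Bmp4 (chromosome 14, 46383525 to 46390669, minus strand), a ligand that preferentially uses the type I receptors BMPR1A and BMPR1B, was the most abundant of the member ligands. The libraries held 11.1, 8.42 and 7.94 FPKM, a mean of 9.14 ± 1.70 FPKM (SD, n = 3) and 8.18 FPKM without replicate 1. Its level placed it at the 70.8th percentile of all genes. Replicate 1 was the high one, by 1.36-fold over the mean of the others.

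Bmp7 (chromosome 2, 172868012 to 172940321, minus strand), a ligand of the subgroup of BMP5, BMP6 and BMP8, which signals widely through the activin receptor ACVR1, was next. Its level was 5.01, 3.12 and 3.01 FPKM, a mean of 3.71 ± 1.12 FPKM (SD, n = 3) and 3.06 FPKM without replicate 1. It was again highest in replicate 1, by 1.63-fold over the mean of the others, while replicate 3 was at 0.964 times replicate 2. The Bmp4 to Bmp7 ratio was 2.21, 2.70 and 2.64, a mean of 2.52 ± 0.264 (SD, n = 3), and their ranges over the libraries did not overlap.

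Bmp6 (chromosome 13, 38345716 to 38500314, plus strand), known for raising hepatic hepcidin in iron balance, had 1.77, 1.77 and 1.13 FPKM. Replicate 3 was the low one here, and replicate 1 did not stand apart. The mean was 1.56 ± 0.366 FPKM (SD, n = 3), 1.45 FPKM without replicate 1. The gene's end overlaps the opposite-strand gene Txndc5 in the GENCODE annotation, which stood at 112, 100.4 and 96.3 FPKM. How the authors' quantification treated strand is not stated, and any share of such reads in the Bmp6 value was not tested.

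Bmp8a, needed in male mice for the upkeep of germ cells and of the epididymis, was the member that differed most between libraries. It had 0.296, 2.46 and 1.20 FPKM, a mean of 1.32 ± 1.09 FPKM (SD, n = 3), with 1.83 FPKM without replicate 1 and 0.748 FPKM without replicate 2. Without replicate 2 it therefore fell under the filter of 1 FPKM, leaving 6 members past it. All 3 libraries were apart from each other, with 8.29-fold between the highest and lowest and a ratio of 0.488 for replicate 3 over replicate 2. On the FPKM + 1 scale, which understates folds of low genes, the spread was 2.67-fold. Because it passed the filter of 1 FPKM through replicates 2 and 3 while lying under it in replicate 1, the spread is described and not counted as evidence.

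Bmp8b, a related ligand known from brown fat and germ cells, was almost unread at 0.0700, 0.0854 and 0.0326 FPKM, a mean of 0.0627 ± 0.0272 FPKM (SD, n = 3) and 0.0590 FPKM without replicate 1. Bmp8a exceeded it 4.23-fold in replicate 1, 28.8-fold in replicate 2 and 36.8-fold in replicate 3. Summed, the pair stood at 0.366, 2.54 and 1.23 FPKM, the same order of libraries as Bmp8a alone. Such copies can trade reads in alignment. In the GENCODE transcripts 8.74% of the 50-base windows of Bmp8a also occurred in Bmp8b, and 4.54% of its 100-base windows. For Bmp8b windows found in Bmp8a the shares were 5.50% and 2.88%. Most windows of either gene thus had no exact match in the other. Near matches were not counted, and any trading of reads was not tested.

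Bmp2 (chromosome 2, 133552159 to 133562896, plus strand), the close relative of Bmp4, was low and even at 0.247, 0.301 and 0.265 FPKM, a mean of 0.271 ± 0.0276 FPKM (SD, n = 3) and 0.283 FPKM without replicate 1. Bmp5 (chromosome 9, 75775365 to 75900316, plus strand), known for shaping the skeleton and ear of the mouse, was the lowest member at 0.0275, 0.0335 and 0.0384 FPKM, with a mean of 0.0331 ± 0.00546 FPKM (SD, n = 3) and 0.0360 FPKM without replicate 1. Both may rest on few fragments, since the steps between their values match low whole numbers. The value of 1 read was 1.22 times as large in replicate 2, and 1.40 times in replicate 3, as in replicate 1. Divided by these steps, the values of Bmp5 stood in the ratio 1 to 1 to 1, those of Bmp8b in 3 to 3 to 1, those of Bmp2 in 13 to 13 to 10 and those of Bmp8a in 10 to 68 to 29, for replicates 1, 2 and 3.

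These are the smallest whole numbers that matched within 0.02%, and the real fragment numbers may be multiples of them. Bmp6 matched 61 to 50 to 28, and the other members matched no set of numbers up to 100. Larger numbers match more easily, so the sets of Bmp6 and Bmp8a are less firm than the others. Of the 1643 genes above 0 and under 0.5 FPKM in every library, 76.4% matched a set of numbers no larger than 20. If these sets hold, Bmp8a differed between libraries in fragments as well as in FPKM. Bmp5 would then have equal numbers in all libraries, and Bmp2 in replicates 1 and 2.

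The order of the ligands by mean was Bmp4, Bmp7, Bmp6, Bmp8a, Bmp2, Bmp8b and Bmp5. Ranges over the 3 libraries did not overlap between Bmp4 and Bmp7, between Bmp7 and Bmp6, or between Bmp2 and Bmp8b. They overlapped between Bmp6 and Bmp8a, between Bmp8a and Bmp2 and between Bmp8b and Bmp5, so the ranges do not order these neighbours. Within libraries, Bmp8a was above Bmp2 in 3 of 3, at ratios of 1.20, 8.17 and 4.53, and Bmp8b was above Bmp5 in 2 of 3. Bmp6 was above Bmp8a 5.96-fold in replicate 1, while Bmp8a was the higher in replicates 2 and 3, where the ratio of Bmp6 to Bmp8a was 0.719 and 0.944. Of the summed ligand FPKM, Bmp4 made up 59.9%, 52.0% and 58.3%, Bmp7 27.1%, 19.3% and 22.1%, and Bmp8a 1.60%, 15.2% and 8.82%. The summed ligand level itself was 18.5, 16.2 and 13.6 FPKM.

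**Figure D2:**
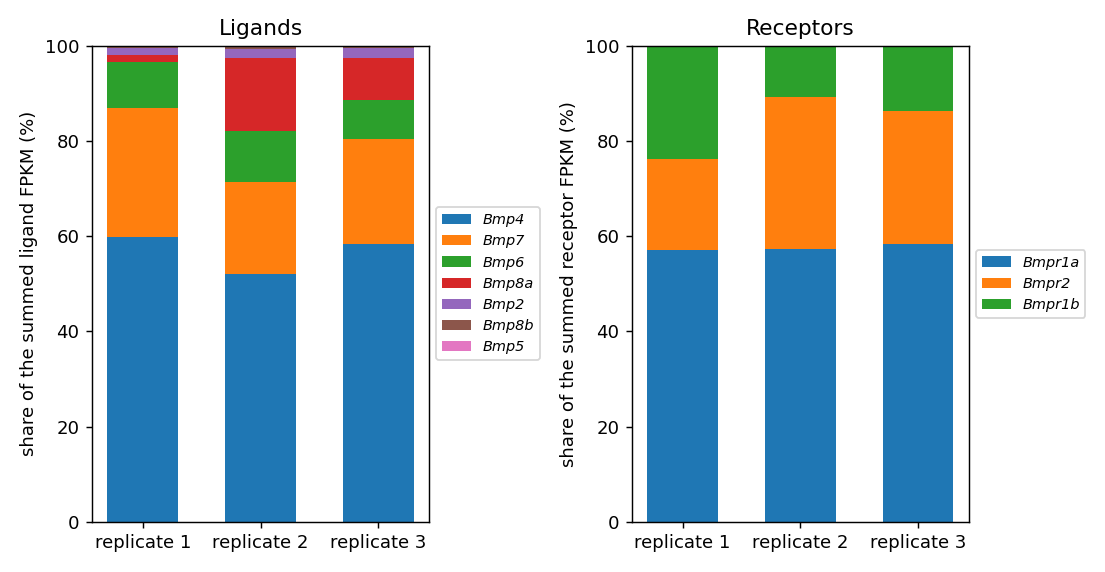
Share of each gene in the summed FPKM of the 7 ligands (left) and of the 3 receptors (right), in percent, with 1 bar per library. Bmpr1a holds between 57.1% and 58.3% of the receptor sum in every library, while the Bmpr1b and Bmpr2 shares trade places between replicate 1 and the others.

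Bmpr1a (chromosome 14, 34411061 to 34503336, minus strand) encodes the widely expressed type I receptor, also called ALK3, and was the most abundant and the steadiest member past 1 FPKM. It stood at 14.1, 15.03 and 13.7 FPKM, a mean of 14.3 ± 0.657 FPKM (SD, n = 3), with a coefficient of variation of 4.59%. Without replicate 1 the mean was 14.4 FPKM, and no library stood apart.

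Bmpr2 (chromosome 1, 59764279 to 59878081, plus strand), the BMP type II receptor, whose loss in endothelium is known from pulmonary hypertension, had 4.70, 8.34 and 6.58 FPKM. Replicate 1 was the low library, at 0.630 times the mean of the others. The mean was 6.54 ± 1.82 FPKM (SD, n = 3) and 7.46 FPKM without replicate 1. All 6 endothelial markers were lowest in replicate 1 as well, against 41.3% of all genes. Their sums were 22.5, 54.5 and 36.5 FPKM, Pecam1 for example at 4.43, 12.1 and 7.49 FPKM. This was not particular to endothelium. Also lowest there were 6 of 7 macrophage, 4 of 5 principal cell and 4 of 6 fibroblast markers past 1 FPKM. The counts were 3 of 6 for basal cell, 2 of 7 for clear and narrow cell and 1 of 6 for smooth muscle markers. Eng, the endothelial co-receptor for BMP9 and BMP10, stood at 6.18, 13.5 and 9.93 FPKM, in the same order of libraries, while Acvrl1, its type I receptor partner, stood at 9.80, 10.7 and 9.34 FPKM. What part endothelial or other cell type content has in the Bmpr2 value was not tested.

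Bmpr1b (chromosome 3, 141837135 to 142169585, minus strand), the type I receptor also called ALK6 and known from cartilage and ovary, moved the other way. It had 5.90, 2.83 and 3.24 FPKM, a mean of 3.99 ± 1.67 FPKM (SD, n = 3), and 3.03 FPKM without replicate 1. Replicate 1 was 1.95-fold above the mean of the others, which differed from each other by a ratio of 1.14. Of 7 clear and narrow cell markers past 1 FPKM, 5 were also highest in replicate 1, against 38.2% of all genes, with 4 of them 2-fold or more above both others on the FPKM + 1 scale, against 1.29%. Foxi1, which specifies these acid-secreting cells, stood at 84.4, 33.4 and 37.3 FPKM. The whole list of 8 summed to 205, 124 and 114 FPKM. Cftr, a chloride channel gene of the same list, ran the other way at 2.02, 11.2 and 7.34 FPKM. Atp6v0d2 was also lowest in replicate 1, at 25.9, 41.1 and 29.5 FPKM. High values there were not particular to these cells, since 5 of 6 smooth muscle markers were highest in replicate 1. The counts were 3 of 6 for basal cell, 1 of 5 for principal cell and 1 of 7 for macrophage markers, and 0 for fibroblast and endothelial markers. The part of cell type content in the Bmpr1b value was not tested.

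Bmpr1a lay above Bmpr2 in every library with no overlap of their ranges, at ratios of 3.004, 1.80 and 2.09. Bmpr2 and Bmpr1b overlapped, and their order turned round, with a Bmpr1b to Bmpr2 ratio of 1.25 in replicate 1 against 0.339 in replicate 2 and 0.492 in replicate 3. The Bmpr1a to Bmpr1b ratio was 2.40, 5.32 and 4.25, a mean of 3.99 ± 1.48 (SD, n = 3) and 4.78 without replicate 1. The summed receptor level hardly moved, at 24.7, 26.2 and 23.6 FPKM, and exceeded the summed ligand level by a factor of 1.34, 1.62 and 1.73.

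The members were then set against a common rule for libraries that differ. A gene with a mean of at least 1 FPKM was called when its FPKM + 1 in replicate 1 was at least 2-fold below, or above, both other libraries. None of the 7 members was called below, against 4.07% of 13073 genes, and none above, against 1.29%. Bmp8a missed the lower call because replicate 3 was too close on that scale, and it passed with a pseudocount of 0.1. At 1.5-fold, Bmp8a was called below and Bmpr1b above, 1 of 7 each, against 8.09% and 5.84% of all genes. Between the highest and lowest library, 1 of 7 members, Bmp8a, varied at least 2-fold, against 10.8% of all genes. None did once replicate 1 or replicate 2 was left out, against 1.72% and 6.95% of all genes. A single gene of 7 is too coarse a share to set apart from these backgrounds. Bmp8a also passed the filter of 1 FPKM only through replicates 2 and 3, so its place in these counts is description and not evidence.

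In direction, 4 of the 7 members were highest in replicate 1 (Bmp4, Bmp6, Bmp7 and Bmpr1b), against 38.2% of all genes, and 2 were lowest there (Bmp8a and Bmpr2), against 41.3%. For Bmp6 the margin over replicate 2 was negligible, since both round to 1.77 FPKM. The median difference between replicate 1 and the mean of the others was 0.19 on the log2(FPKM + 1) scale over the 7 members and -0.01 over the 13073 genes.

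**Figure D3:**
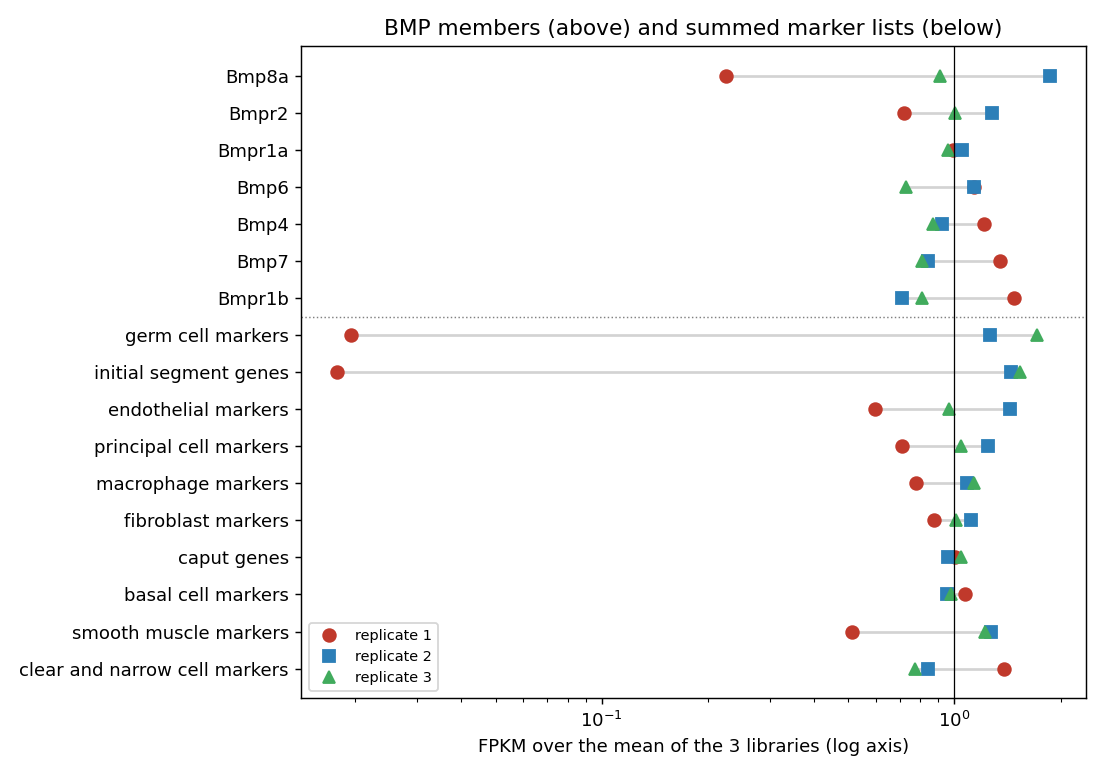
FPKM in each library over the mean of the 3 libraries (log axis) for the 7 members past 1 FPKM (above the dotted line) and for the summed FPKM of marker lists (below it). Bmp8a in replicate 1 lies far to the left with the germ cell and initial segment sums, though less far, and Bmp4, Bmp7 and Bmpr1b in replicate 1 lie to the right with the clear and narrow cell sum.

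The low Bmp8a of replicate 1 stood beside low initial segment genes and low germ cell genes. Etv4 and Etv5, the ETS factor genes of the initial segment, were at 0.960 and 1.94 FPKM in replicate 1, against 75.9 and 188 FPKM (replicate 2) and 66.1 and 144 FPKM (replicate 3). The other members with an ETS core in a window, Bmp4 (11.1, 8.42 and 7.94 FPKM) and Bmpr1b (5.90, 2.83 and 3.24 FPKM), were highest in replicate 1. Any link between ETS factors and the members was not tested. Of the germ cell list, 6 of 7 genes passed the same 2-fold call below in replicate 1, and its defining genes Prm1, Prm2, Tnp2, Akap4 and Odf1 were listed at 0 there. From replicate 2 to replicate 3, Bmp8a was lower, the initial segment sum was about level and the germ cell sum was higher. These sums do not stand for each gene, since both lists held genes going either way. Adam28 (915 and 718 FPKM) and Prm1 (38.9 and 36.4 FPKM) were lower in replicate 3. Lcn8 (14252 and 15342 FPKM) and Prm2 (73.4 and 117 FPKM) were higher. Oxct2a, a spermatid gene that lies inside the Bmp8a locus on the same strand (chromosome 4, 123321875 to 123323634), was listed at 0 in replicate 1, with 0.585 FPKM in replicate 2 and 0.503 FPKM in replicate 3. None of the 50-base windows of the Bmp8a transcripts occurred in Oxct2a. Which cells gave the Bmp8a reads was not tested.

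By Euclidean distance between log2(FPKM + 1) values centred on each gene's mean over the 3 libraries, the 5 genes nearest to Bmp8a among 9223 genes of at least 5 FPKM were Armcx4, Slc29a4, Rab42, Podxl and Larp4b, at distances of 0.051 to 0.099. Podxl, a sialomucin gene of podocytes and endothelium, stood at 3.41, 11.1 and 6.04 FPKM. None of them was on the initial segment or germ cell lists, but for most list genes the measure fixed this in advance. Bmp8a spanned 2.67-fold on the FPKM + 1 scale, against 64.3-fold for Etv5 and 118-fold for Prm2. Genes of such wide folds could not lie near it, so no conclusion is drawn from their absence. Within a distance of 0.2 of Bmp8a lay 25 genes. The 5 nearest to Bmpr1b were Fosl2, Slc16a3, Rbpms, Fbxo44 and 4931428F04Rik, at distances of 0.009 to 0.016. Fosl2, an AP-1 subunit gene, stood at 14.8, 7.69 and 8.60 FPKM, and 302 genes lay within 0.2, so over 3 libraries the pattern of Bmpr1b was a common one.

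The remaining superfamily ligands were mostly unread. Of 19 listed TGF-beta superfamily ligand genes outside the members, 5 had a mean of at least 1 FPKM and 4 (Bmp10, Gdf7, Mstn and Nodal) were listed at 0 in every library. Inha, the inhibin alpha chain gene, had the highest mean, with 46.1, 23.2 and 33.1 FPKM. Inhbb, the activin and inhibin beta B chain gene, was the 1 gene of the 5 called at 2-fold below in replicate 1, with 7.21, 32.1 and 22.7 FPKM. It was above Inha in replicate 2, and without replicate 1 the means were close, at 27.4 FPKM for Inhbb and 28.1 FPKM for Inha. Amh, the anti-Müllerian hormone gene, was the lowest read in every library at 0.263, 0.160 and 0.0612 FPKM. Gdf10, named after its values were seen, stood at 6.74, 7.81 and 6.85 FPKM, above Bmp7 in every library.

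Among 4 proprotein convertase genes, 3 were past 1 FPKM. Furin, the convertase best known for cutting the BMP4 precursor, stood at 50.3, 33.8 and 33.6 FPKM, and Pcsk5 was called below in replicate 1 at 5.47, 33.1 and 24.6 FPKM. Furin thus exceeded Pcsk5 in replicate 1 by far more than in the others. Pcsk6 was lowest at 0.265, 0.364 and 0.220 FPKM.

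Secreted antagonists and modulators were mostly higher in replicate 1. Of the 26 listed, 17 had a mean of at least 1 FPKM, and 13 of these were highest in replicate 1, against 38.2% of all genes, yet none passed 2-fold in either direction there. Their median difference between replicate 1 and the mean of the others was 0.54 on the log2(FPKM + 1) scale, beside -0.01 over all genes. Nbl1, a DAN-family antagonist gene, was the most abundant at 63.1, 37.7 and 37.7 FPKM, and Bmper the lowest read in every library at 0.142, 0.0432 and 0.148 FPKM. Other members are given here after their values were seen. Chrd, encoding chordin, stood at 5.42, 2.104 and 2.44 FPKM and Nog, encoding noggin, at 1.86, 0.772 and 0.988 FPKM, both high in replicate 1. Grem1, encoding gremlin, stood at 0.0893 and 0.436 FPKM and was listed at 0 in replicate 3. Of the smooth muscle markers, which mark the coat of the duct, 5 of 6 were highest in replicate 1 too, against 38.2% of all genes, Acta2 for example at 306, 193 and 178 FPKM, while Actg2 ran the other way at 49.9, 1341 and 1316 FPKM.

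Receptors and co-receptors shared with other TGF-beta family ligands held no gene apart at 2-fold in replicate 1. Of the 16 listed, 13 had a mean of at least 1 FPKM, 8 of them highest and 4 lowest in replicate 1, beside 38.2% and 41.3% over all genes. Rgmb, a co-receptor gene for BMP2 and BMP4, had the highest mean over the 3 libraries, with 16.9, 16.0 and 13.3 FPKM. Tgfbr1, a TGF-beta type I receptor gene, was higher in replicates 2 and 3, with 14.2, 16.3 and 15.2 FPKM, and without replicate 1 it led by 15.8 FPKM to the 14.6 FPKM of Rgmb. In contrast, the type I receptor gene Acvr1c was the lowest of those read in every library, at 0.286, 0.175 and 0.253 FPKM. Hfe2, another name of the hemojuvelin gene Hjv, was lower still, listed at 0 in replicate 1 with 0.0430 and 0.0492 FPKM in the others. Acvr1, the type I receptor used by BMP6 and BMP7, stood at 15.3, 11.3 and 10.2 FPKM, and was named after its values were seen. It was near Bmpr1a in replicate 1 (14.1 FPKM) and below it in replicates 2 and 3 (15.03 and 13.7 FPKM).

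In the SMAD chain, 18 of 19 genes had a mean of at least 1 FPKM, 5 of them highest and 11 lowest in replicate 1, against 38.2% and 41.3% of all genes, and none was called at 2-fold there. Smad1 stood at 17.0, 18.8 and 16.4 FPKM and Smad5 at 8.83, 12.8 and 10.9 FPKM, and Smad9, the remaining BMP-regulated SMAD gene, was the lowest of the list at 0.406, 0.180 and 0.224 FPKM. Fkbp1a, which encodes the protein that holds type I receptors silent, was highest at 119, 207 and 201 FPKM. Smad4, the common partner, stood at 11.3, 13.1 and 11.6 FPKM. The median difference of the 18 genes between replicate 1 and the others was -0.25 on the log2(FPKM + 1) scale.

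Genes known to respond to BMP in other tissues went in both directions. Of 22 listed, 17 had a mean of at least 1 FPKM, 9 of them highest and 6 lowest in replicate 1, against the same 38.2% and 41.3%, and 1 was called at 2-fold below there. That gene was Runx2, the bone transcription factor, at 0.169, 24.1 and 18.1 FPKM. The inhibitors of DNA binding, the most direct of these genes, stood at 13.8, 15.5 and 11.5 FPKM for Id1, 46.4, 28.4 and 31.5 FPKM for Id2, 8.44, 16.3 and 13.1 FPKM for Id3 and 4.84, 5.58 and 3.75 FPKM for Id4, so replicate 1 was high for Id2, low for Id3 and between for Id1 and Id4. Tbx2 was the most abundant of the list at 82.4, 56.9 and 61.6 FPKM. The inhibitory genes Smad6 (3.92, 3.69 and 2.48 FPKM) and Smad7 (5.51, 5.32 and 4.37 FPKM), which also belong to the SMAD chain, and Bambi (4.96, 2.69 and 2.61 FPKM), a decoy receptor gene, were highest in replicate 1. Bambi is also on the list of shared co-receptors, and Nog, Grem1 and Bmper are also on the antagonist list. The counts of these lists therefore overlap.

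**Figure D4:**
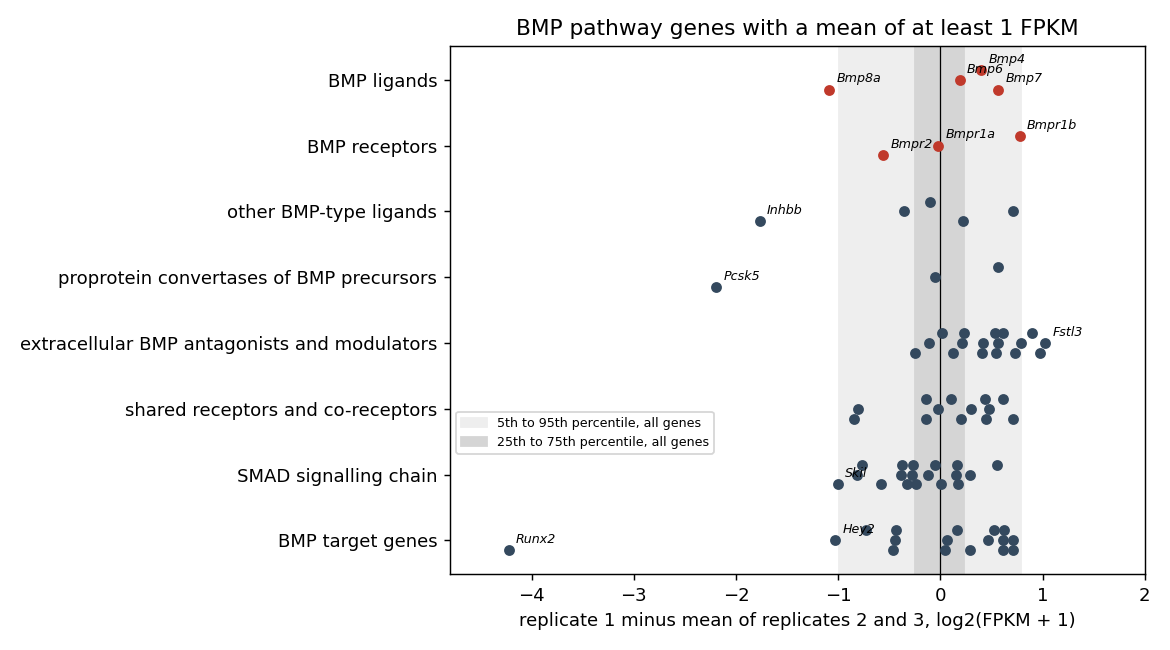
Difference between replicate 1 and the mean of replicates 2 and 3 on the log2(FPKM + 1) scale for BMP members (red) and other pathway genes (dark) with a mean of at least 1 FPKM; grey bands span all 13073 such genes. Runx2, Pcsk5 and Inhbb lie left of the 5th percentile (-0.99), Bmp8a, Hey2 and Skil lie just past it, and most antagonists lie right of 0.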

How the data were processed

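Polyadenylated RNA was sequenced from 3 libraries after TRIzol extraction and a stranded TruSeq kit, per the labels' protocols. The authors deposited normalized FPKM values per gene, per the file headers. TopHat2 2.1.1, Cufflinks 2.2.1 and build mm10 are named in the submitters' processing notes. No source used here gives the annotation, strand setting, filters or normalization method.

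Columns were assigned by their sample names. Values were analysed as log2(FPKM + 1) without a count model, and with 1 group no group test was made. Depth is known only in relative terms, from steps between low values. Neighbours in an order of levels were called apart where their ranges did not overlap. The calls, size factors, distances and whole-number sets were tested on simulated data. The named-gene rule took all 10 members and, of each pathway list, the highest, the lowest read in every library, and those called at 2-fold in replicate 1. Members and lists were chosen with earlier results of these data known. Gene positions were matched by NCBI identifier to RefSeq, for all 10 members. Overlapping genes, strands and transcripts came from GENCODE M21. Results were recomputed without each replicate, with scaling by median ratios or to a common sum, with a pseudocount of 0.1, with other filters, thresholds and folds, and with Bmp8a and Bmp8b summed. Hjv was matched by its older symbol Hfe2. Python 3.11.15, numpy 2.4.6, pandas 2.3.3 and matplotlib 3.10.9 were used.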

Additional observations from a re-analysis of the deposited data

How the results depend on the processing

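All 51 alternative values of the 10 members' mean levels, each from leaving out 1 replicate, from 2 other scalings or from summing Bmp8a and Bmp8b, moved by less than 1 SD. With 1 replicate left out this was fixed in advance, since dropping 1 of 3 libraries cannot move a mean by 1 SD. Bmp8a still ran from 0.748 FPKM without replicate 2 to 1.83 FPKM without replicate 1. The count of members past the threshold on the mean was 3 at 5 FPKM, against 7 at 1 FPKM. With 1 replicate left out it ran between 6 and 7, Bmp8a dropping out without replicate 2. The median level of the members was 1.81 on the log2(FPKM + 1) scale, 1.35 with a pseudocount of 0.1 and 2.24 over the 7 members past 1 FPKM. Members at least 2-fold apart from both others in any library numbered 0, against 6.56% of all genes. With a pseudocount of 0.1 there was 1, against 9.63%, and at a fold of 1.5 there were 2, against 17.1%. With 1 replicate left out, the count of members 2-fold apart between the remaining libraries ran between 0 and 1. The same range held for members varying at least 2-fold between highest and lowest library. The 1 was Bmp8a, without replicate 3, against 8.93% of all genes. With a pseudocount of 0.1, 2 members varied at least 2-fold between highest and lowest library, against 15.6%. Both other scalings left the counts as they were. The Bmpr1a to Bmpr1b ratio ran between 3.32 and 4.78 with 1 replicate left out. No paired analysis was possible because the labels give 1 group. With 3 libraries of unknown absolute depth, the ratios of Bmp5, Bmp8b and Bmp2 may rest on very few fragments, since their smallest matching sets hold low numbers. The same holds for Bmp8a in replicate 1, where its set gave 10.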
